A study of Mus musculus with 16 samples.

Results

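The genes described here are 33 genes of sterol and fatty acid synthesis, chosen by symbol from the 46078 genes of the count table. Their measured values were not used in the choice, though earlier results of these data were known. All 33 were found in the table, and all 33 passed the filter on low counts in every comparison. They fall into 8 genes of the mevalonate and isoprenoid steps, 3 genes from squalene to lanosterol, 8 genes from lanosterol to cholesterol, 5 regulators, 2 genes of sterol uptake and transport and 7 genes of fatty acid synthesis and desaturation. Their levels were read from RNA-seq of mucosa of the ileum, with 16 mice in 4 groups of 4, namely Slfn3KO females, WT females, Slfn3KO males and WT males. The Slfn3KO mice carry a knockout of the Schlafen family gene Slfn3, and the WT mice were littermates, all with C57Bl/6 as the strain background. The labels give an age of 8 weeks for every mouse, whereas the methods of the study give an older range, and the labels name no treatment.

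Cells make cholesterol from acetyl-CoA through mevalonate, squalene and lanosterol, and they make fatty acids from the same acetyl-CoA. When the membrane of the endoplasmic reticulum holds little sterol, Scap carries the precursors of the transcription factors Srebf1 and Srebf2 to the Golgi, where they are cut and released to switch on the genes of both pathways. Insig1 and Insig2 hold Scap back when sterol is plentiful. The small intestine is a major site of cholesterol synthesis, and its absorptive cells also take up cholesterol from the lumen through Npc1l1.

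The counts of a mouse summed to between 20823279 and 30813117, so that 3 counts, taken as the floor of detection, came to 0.0974 to 0.144 CPM (counts scaled to library size) and cover counting error only. Slfn3 itself had 0 to 2 counts in the Slfn3KO mice and 0 to 19 counts in the WT mice, so that the ranges overlapped at this depth. In 4 of the 16 libraries, the WT libraries numbered 3 and 4 of both sexes, the sex transcripts went against the label of sex, so male and female mean the deposited label throughout. These 4 libraries were also the richest in markers of B cell follicles. The 5 ileal enterocyte markers (Fabp6, Slc10a2, Fgf15, Slc51a and Slc51b) were detected in every mouse and summed to between 3222 and 17948 CPM. Each library was taken as 1 mouse, and p-values measure the spread between these libraries.

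The stretch of 250 bases before the RefSeq start of 5 members is shown, since 4 of them (Hmgcs1, Idi1, Msmo1 and Cyp51) varied together across the mice and the other, Fasn, is the member against which the fatty acid genes are compared. RefSeq promoters of the GRCm38.p6 build were matched by symbol for 27 of the 33 members, and Sqle, Fdft1, Fdps, Scd2, Fads1 and Stard4 had no entry. Both strands were searched for the sterol regulatory element TCACNCCAC and the CCAAT box, and matches are in capitals, so that a CCAAT box on the opposite strand reads ATTGG. The 2 motifs do not overlap in these sequences, while in Fasn a pair of CCAAT matches on opposite strands overlap each other. Positions are counted from the RefSeq start, which can lie well away from the start of the gene in the count table. For Fasn, on the minus strand, the window reached down to 120824548, while the counted gene began at 120824178. The windows of Idi1, Msmo1 and Cyp51 lay partly inside the counted gene.
Hmgcs1 (chr13:119690101-119690350, + strand): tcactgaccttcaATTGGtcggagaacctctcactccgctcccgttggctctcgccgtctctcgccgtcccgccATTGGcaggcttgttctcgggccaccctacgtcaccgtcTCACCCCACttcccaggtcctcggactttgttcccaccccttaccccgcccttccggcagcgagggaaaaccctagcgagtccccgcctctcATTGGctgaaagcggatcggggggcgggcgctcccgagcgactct
Idi1 (chr13:8885356-8885605, + strand): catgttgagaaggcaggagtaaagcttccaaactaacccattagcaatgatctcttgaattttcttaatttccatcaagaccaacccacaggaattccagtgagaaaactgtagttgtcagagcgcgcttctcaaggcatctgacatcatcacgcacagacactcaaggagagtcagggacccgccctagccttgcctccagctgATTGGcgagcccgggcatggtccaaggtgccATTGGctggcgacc
Msmo1 (chr8:64733579-64733828, - strand): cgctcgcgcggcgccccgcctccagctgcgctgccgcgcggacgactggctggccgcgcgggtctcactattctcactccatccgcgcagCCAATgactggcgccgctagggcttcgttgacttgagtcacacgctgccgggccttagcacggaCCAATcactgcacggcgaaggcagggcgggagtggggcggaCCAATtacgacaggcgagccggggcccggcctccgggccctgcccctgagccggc
Cyp51 (chr5:4104698-4104947, - strand): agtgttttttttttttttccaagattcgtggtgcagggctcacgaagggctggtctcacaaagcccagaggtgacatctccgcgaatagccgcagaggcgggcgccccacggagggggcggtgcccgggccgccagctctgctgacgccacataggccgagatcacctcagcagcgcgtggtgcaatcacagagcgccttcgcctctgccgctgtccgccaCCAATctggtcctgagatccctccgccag
Fasn (chr11:120824548-120824797, - strand): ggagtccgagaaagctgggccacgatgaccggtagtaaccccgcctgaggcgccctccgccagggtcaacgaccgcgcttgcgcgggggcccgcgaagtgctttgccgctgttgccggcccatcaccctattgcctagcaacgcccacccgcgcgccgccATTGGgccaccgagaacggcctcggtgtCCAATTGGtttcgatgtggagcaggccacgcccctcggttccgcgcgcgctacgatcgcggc

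Among the 27 members with an entry, an exact match to TCACNCCAC was found in Hmgcs1 only, as TCACCCCAC at position -137 from the start. Of all 32851 promoters, 1.05% held a match. Other spellings of the sterol regulatory element were not searched for, so a member without a match may still hold one. The CCAAT box was found in 21 of the 27 members and in 33.8% of all promoters. It was found in 12 of the 13 members with an entry that were Hmgcs1 itself or followed it across mice, and in 9 of the 14 others. A match is a run of letters in this window and no measurement of binding.

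The level per length, in RPKM (counts scaled to exon length and library size), spanned a 421-fold range over the members. Npc1l1 was highest at 387 ± 169 RPKM (mean ± SD, n = 16) and Hmgcs1, which condenses acetyl-CoA with acetoacetyl-CoA, was next at 151 ± 45.7. Sc5d, Stard4 and Scd2 followed at 74.0 ± 12.5, 73.1 ± 11.3 and 58.7 ± 29.8. The lowest were Fdps at 3.29 ± 0.869, Fads1 at 3.21 ± 1.47 and Idi1, the isomerase of isopentenyl diphosphate, at 0.919 ± 0.286. Of the 32 neighbouring pairs in this order, 31 had overlapping ranges over the mice, and Hmgcs1 and Sc5d were the pair that did not overlap. Exon lengths were those of the merged gene models in the table, so that genes with long merged models, such as Lss and Acss2, have a low value per length.

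The members differed in how much they varied among the mice. Fold ranges between the highest and the lowest mouse were 6.23 for Npc1l1, 6.14 for Fads1, 4.95 for Scd2 and 4.09 for Fads2. They were only 1.30 for Ebp, which isomerises a sterol ring bond, 1.35 for Scap and 1.36 for Ggps1, which makes geranylgeranyl diphosphate. The median coefficient of variation was 25.5% over the 33 members and 22.4% over the 14822 genes tested in all mice.

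**Figure D1:**
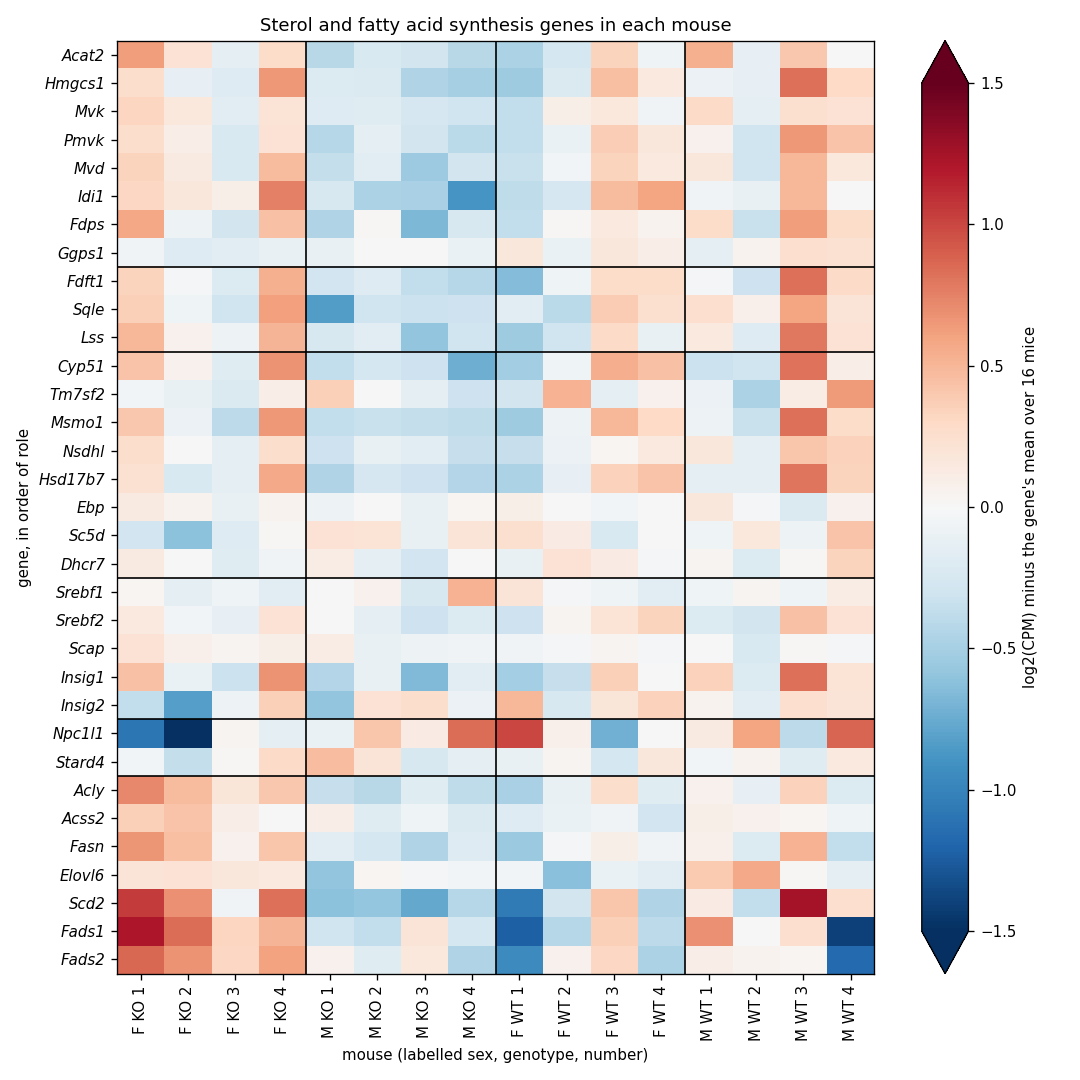
Colour gives log2(CPM) minus the gene's mean over the 16 mice, with 1 row per gene in order of role and 1 column per mouse (F, labelled female; M, labelled male; KO, Slfn3KO), and colours stop at -1.5 and 1.5. Male WT mouse 3 and female Slfn3KO mouse 4 stand out as high in many rows of the sterol enzymes, with Hmgcs1 at 835 and 737 CPM, and Npc1l1 ranged from 501 CPM in female Slfn3KO mouse 2 to 3122 CPM in female WT mouse 1.

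In the mevalonate steps, Hmgcs1 (chr13:119690462-119708086, plus strand, mm10) had 564, 432, 411 and 737 CPM in the Slfn3KO females 1 to 4 and 324, 405, 642 and 521 in the WT females. It had 408, 406, 344 and 333 in the Slfn3KO males and 441, 430.0, 835 and 580.3 in the WT males. Male WT mouse 3 was the highest of the 16, and all 4 Slfn3KO males lay below all 4 WT males and all 4 Slfn3KO females. Idi1 showed the same order at a much lower level, with 2.60, 2.22, 2.19 and 1.66 CPM in the Slfn3KO males, 2.97, 2.84, 4.35 and 3.08 in the WT males and 3.83, 3.48, 3.26 and 5.22 in the Slfn3KO females. Reads from Acat2, Fdps and Idi1 are less certain than the rest, since 39.1%, 26.2% and 17.7% of the 50-base stretches of their transcripts also occur in transcripts of other genes, Acat3 in the case of Acat2 and predicted gene models in the other two.

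Sqle (chr15:59315077-59331192, plus strand, mm10), the squalene epoxidase and a rate-limiting enzyme of the later pathway, had 312, 234, 198 and 376 CPM in the Slfn3KO females and 218, 184, 319.7 and 288 in the WT females. It had 137, 199, 195 and 197 in the Slfn3KO males and 292, 258, 369 and 281 in the WT males, and the male groups did not overlap. Cyp51, the lanosterol demethylase, had 267, 207, 174 and 316 CPM in the Slfn3KO females, 138, 189, 289 and 269.6 in the WT females, 154, 164, 159.6 and 119 in the Slfn3KO males and 159, 161, 348 and 212 in the WT males. The Slfn3KO females lay above the Slfn3KO males for Cyp51, whereas the WT males, with mouse 3 far above the rest, overlapped with both.

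Among the regulators, Srebf2, the factor named for its action on sterol genes, had 255, 224, 212 and 267 CPM in the Slfn3KO females, 185, 236, 264 and 291 in the WT females, 231, 209, 186 and 199.99 in the Slfn3KO males and 199, 189.9, 313 and 266 in the WT males. Srebf1, which acts mainly on fatty acid genes, had 63.6, 56.3, 59.5 and 55.8 CPM in the Slfn3KO females and 70.9, 60.7, 59.4 and 55.9 in the WT females. It had 62.4, 64.8, 52.6 and 89.0 in the Slfn3KO males and 59.5, 63.7, 59.6 and 67.1 in the WT males. The 4 groups overlapped for both genes, and Srebf1 was highest in male Slfn3KO mouse 4. Insig1 had 96.3, 66, 56.8 and 113 CPM in the Slfn3KO females, 49.6, 55.9, 90.7 and 71.3 in the WT females, 52.4, 65.6, 44.8 and 63.1 in the Slfn3KO males and 89.8, 61.5, 125 and 81.8 in the WT males. Its highest values were in male WT mouse 3 and female Slfn3KO mouse 4, the mice that were also highest for Hmgcs1.

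Npc1l1 (chr11:6211013-6230143, minus strand, mm10) had 734, 501, 1599.5 and 1403 CPM in the Slfn3KO females, 3122, 1638, 949 and 1550.4 in the WT females, 1451, 2084, 1701 and 2784 in the Slfn3KO males and 1712, 2357, 1184 and 2863 in the WT males. The order of the mice was unlike that of Hmgcs1, with Slfn3KO females 1 and 2 lowest and female WT mouse 1 highest. Stard4, which moves cholesterol between membranes, ranged only from 315 to 555 CPM over the 16 mice.

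Fasn (chr11:120805940-120824178, minus strand, mm10), the fatty acid synthase, had 118, 101, 77.9 and 99.7 CPM in the Slfn3KO females, 50.7, 73.8, 79.4 and 71.6 in the WT females, 66, 62.1, 54.7 and 64.9 in the Slfn3KO males and 78.4, 64.5, 107 and 57.8 in the WT males. Scd2 (chr19:44293676-44306864, plus strand, mm10), a stearoyl-CoA desaturase, had 591, 462, 278 and 507 CPM in the Slfn3KO females, 137, 236, 383 and 209.9 in the WT females, 187, 192, 169 and 214 in the Slfn3KO males and 312, 223, 679.7 and 342 in the WT males. The Slfn3KO females lay above the Slfn3KO males without overlap for both genes. For Scd2, the Slfn3KO males also lay below every WT male, of which mouse 3 was the highest of all 16 mice, and 3.97% of its 50-base stretches are shared, mainly with Scd3, Scd4 and Scd1.

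**Figure D2:**
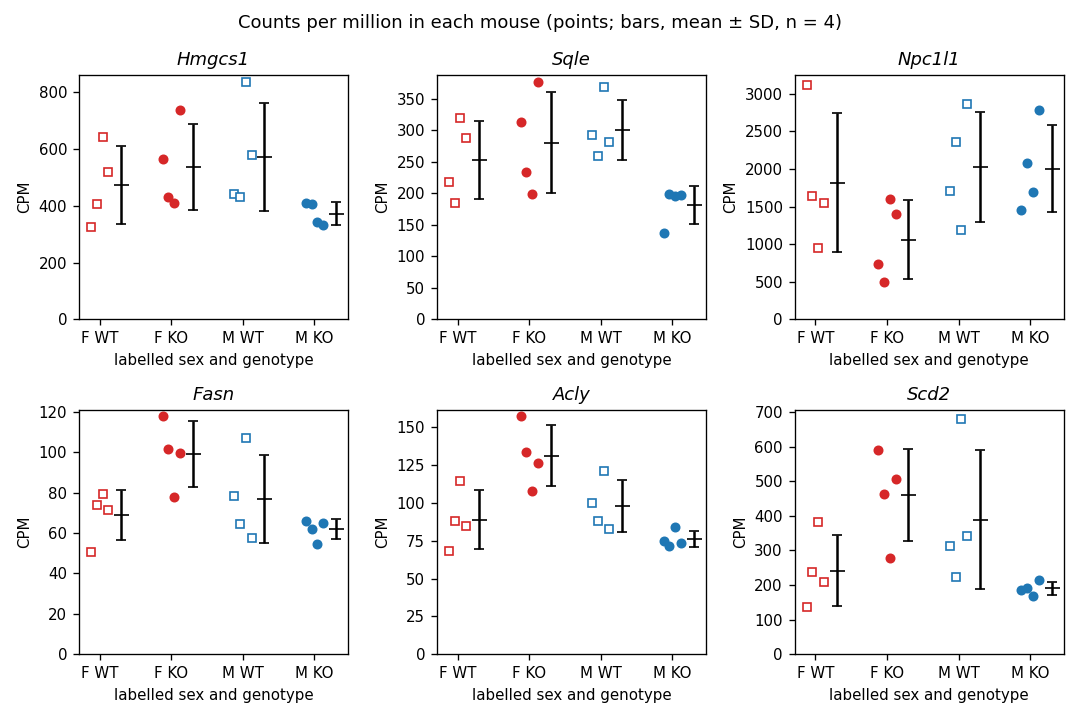
CPM of 6 members in each mouse, by labelled sex (F, M) and genotype, with the mean ± SD of 4 mice beside the points. The Slfn3KO males sit below all WT males for Hmgcs1, Sqle and Scd2, and the Slfn3KO females sit above the Slfn3KO males without overlap for Hmgcs1, Fasn, Acly and Scd2.

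Slfn3KO mice were first compared with WT mice of both sexes together. No member passed the threshold of an adjusted p under 0.05 with a change of at least 1.5-fold (edgeR's quasi-likelihood test, p adjusted by the method of Benjamini and Hochberg), and 0% of the 14822 genes tested did. At an unadjusted p under 0.05 there was 1 member, Ggps1, against 11.9% of all genes, and DESeq2 passed no member and 71 genes. The log2 fold change, as Slfn3KO against WT, was below 0 for 24 of the 33 members, with a median of -0.13 beside a median near 0 over all genes (-0.0037). The lowest values were -0.40 ± 0.30 (SE) for Npc1l1, -0.29 ± 0.19 for Sqle and -0.29 ± 0.18 for Hsd17b7, which acts in the removal of methyl groups from lanosterol. The highest were 0.44 ± 0.22 for Fads2, 0.42 ± 0.31 for Fads1 and 0.14 ± 0.10 for Acss2, which makes acetyl-CoA from acetate.

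The other members described in full lay between these values. The log2 fold change was -0.22 ± 0.20 for Hmgcs1, -0.22 ± 0.21 for Cyp51, -0.18 ± 0.22 for Insig1 and -0.13 ± 0.12 for Srebf2. It was 0.02 ± 0.09 for Srebf1, 0.11 ± 0.17 for Fasn and -0.05 ± 0.36 for Scd2. All 19 members of the mevalonate, squalene and lanosterol steps were below 0, while 6 of the 7 fatty acid genes were above 0, each without passing the test. The direction of many of these genes depended on the WT libraries numbered 3 and 4. Without these libraries 7 of the 19 were still below 0, Sqle among them at -0.10 ± 0.23. In that fit the log2 fold change of Hmgcs1 was 0.15 ± 0.20 and that of Cyp51 0.21 ± 0.19, 22 of 33 members were above 0 and the median was 0.06.

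In males, 28 of the 33 members were lower in Slfn3KO than in WT mice, and the median log2 fold change was -0.37, beside -0.0016 over all 14124 genes tested. No member passed the threshold, nor did any other gene (0%), and the lowest adjusted p among members was 0.925 by edgeR's quasi-likelihood test. At an unadjusted p under 0.05, 16 members were lower and none was higher, against 1.98% of all genes that were lower. DESeq2 passed 18 genes and no member, and its lowest adjusted p for a member was 0.052. The lowest values were -1.04 ± 0.32 for Scd2, -0.72 ± 0.16 for Sqle and -0.67 ± 0.22 for Insig1, and the highest were 0.08 ± 0.28 for Fads2, 0.11 ± 0.17 for Stard4 and 0.11 ± 0.15 for Srebf1.

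By role, all 8 mevalonate genes were lower in Slfn3KO males, 7 of them at an unadjusted p under 0.05, with -0.62 ± 0.23 for Hmgcs1. All 3 genes from squalene to lanosterol were lower at that level. Of the 8 genes from lanosterol to cholesterol, 3 were lower at that level, and Cyp51 had -0.56 ± 0.27. Srebf2 had -0.23 ± 0.18 and Npc1l1 had -0.01 ± 0.29, and neither was past an unadjusted p of 0.05. Of the fatty acid genes, 2 were lower at that level, Scd2 and Acly, and Fasn had -0.32 ± 0.19. Without male WT mouse 3 the values of Cyp51, Srebf2 and Fasn were -0.23, -0.062 and -0.095, and with both WT libraries 3 and 4 left out, -0.09, 0.09 and -0.20.

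The male groups did not overlap for 8 members, each lower in Slfn3KO mice, namely Acat2, Hmgcs1, Mvk, Idi1, Sqle, Msmo1, Hsd17b7 and Scd2. The same held for 1.23% of all genes. Without the WT libraries 3 and 4, the median of the members was -0.19, 7 members were lower at an unadjusted p under 0.05 (3.76% of all genes), and the value was -0.22 ± 0.14 for Hmgcs1, -0.59 ± 0.17 for Sqle and -0.48 ± 0.16 for Scd2. With the mouse number as a block, 9 members were lower at that level (3.24% of all genes), and genes at an unadjusted p under 0.05 and 1.5-fold went from 272 to 447. The 7 B cell follicle markers summed to 2.49 to 672 CPM in WT males and to 0.865 to 97.9 CPM in Slfn3KO males, and their part in the result was not tested.

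In females, 25 of the 33 members were higher in Slfn3KO than in WT mice, and the median log2 fold change was 0.16, beside -0.0098 over all 14064 genes tested. No member and no other gene (0%) passed the threshold, and the lowest adjusted p among members was 0.236 by edgeR's quasi-likelihood test. All 7 fatty acid genes were higher at an unadjusted p under 0.05, and no other member was, against 8.58% of all genes that were higher. The highest were 1.07 ± 0.32 for Fads1 and 0.80 ± 0.25 for Fads2, which desaturate polyunsaturated fatty acids, and 0.92 ± 0.33 for Scd2. Acly, which makes acetyl-CoA from citrate, had 0.55 ± 0.17, Fasn 0.52 ± 0.17, Elovl6, which lengthens saturated fatty acids, 0.39 ± 0.13, and Acss2 0.38 ± 0.11.

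The sterol genes of females were nearer to 0. Hmgcs1 had 0.18 ± 0.26, Sqle 0.15 ± 0.25, Cyp51 0.12 ± 0.27 and Insig1 0.31 ± 0.26. Srebf2 had -0.03 ± 0.16 and Srebf1 -0.07 ± 0.10. The lowest values were -0.77 ± 0.46 for Npc1l1, -0.39 ± 0.26 for Insig2 and -0.30 ± 0.16 for Sc5d, a sterol desaturase. None of these 9 differed from 0 at an unadjusted p under 0.05. The female groups did not overlap for 3 members, Scap, Acss2 and Elovl6, each higher in Slfn3KO mice, against 4.86% of all genes.

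DESeq2 passed 530 genes in females (3.49% of those it gave an adjusted p), 1 of the 33 members among them, Fads1 (adjusted p 0.0418), and over all alternatives the adjusted p of Fads1 ran from 0.000646 to 0.554. Without the WT libraries 3 and 4, the median of the members by edgeR was 0.38, with 0.55 ± 0.29 for Hmgcs1, 1.28 ± 0.36 for Scd2 and 1.52 ± 0.33 for Fads1, and no member passed. Over all 8 females, the 6 proximal enterocyte markers (Fabp1, Gata4, Lct, Rbp2, Apoa4 and Ada) summed to 159 to 1171 CPM in Slfn3KO females and 737 to 7634 CPM in WT females. The 5 markers of crypt and dividing cells (Lgr5, Olfm4, Ascl2, Mki67 and Top2a) summed to 416 to 567 CPM and 106 to 398 CPM in these groups. The 6 general enterocyte markers (Vil1, Alpi, Sis, Dpp4, Anpep and Krt20) summed to 13117 to 25497 CPM and 20342 to 38801 CPM. WT females 1 and 2, the mice left in the fit without libraries 3 and 4, had 7634 and 1748 CPM of the proximal and 106 and 321 CPM of the crypt markers. The part of any of these markers in the result was not tested, and in bulk mucosa fewer cells of a type and less RNA per cell cannot be told apart.

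**Figure D3:**
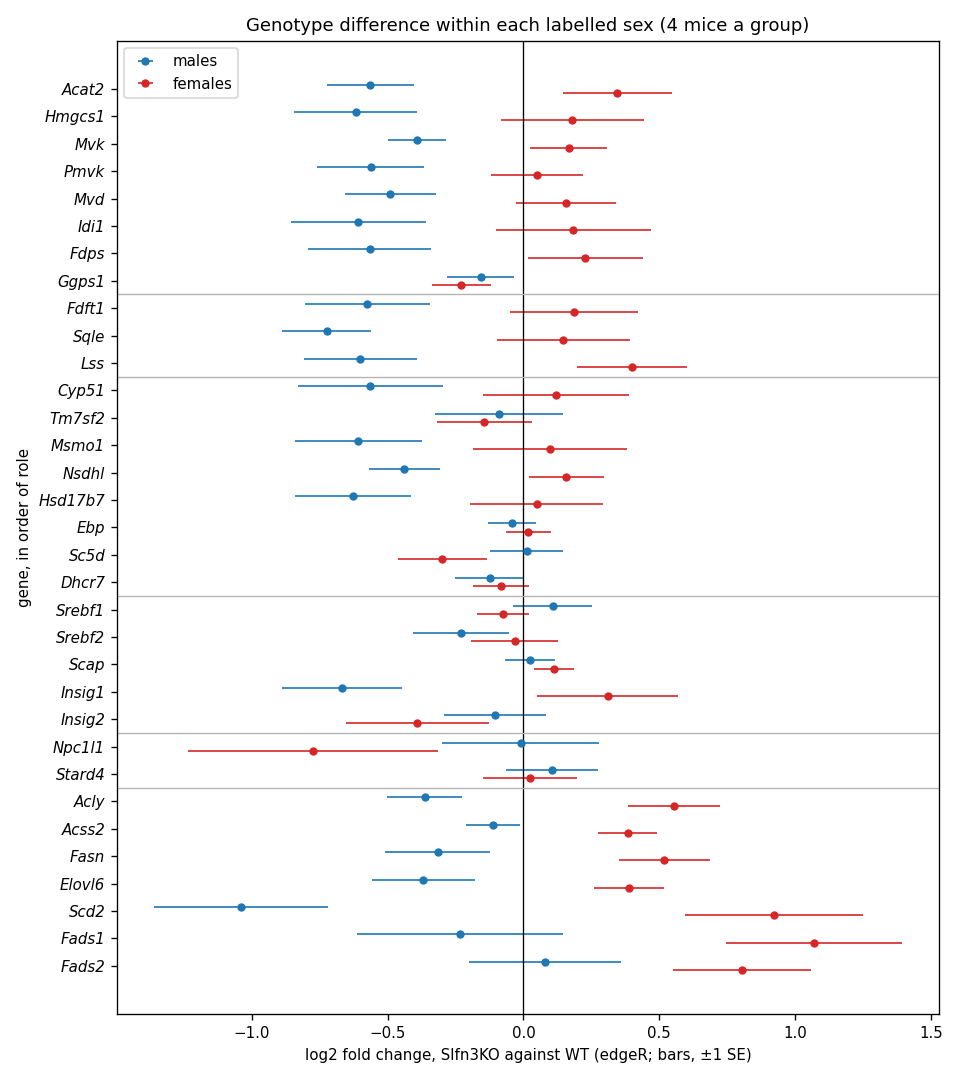
Points give the log2 fold change of each member, Slfn3KO against WT, in males (blue) and females (red), with bars of 1 standard error from edgeR and genes in order of role. Of the 19 sterol enzymes, 18 lie left of 0 in males and 15 right of 0 in females, and all 7 fatty acid genes lie right of 0 in females, while Npc1l1 lies at -0.77 in females and -0.01 in males.

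The difference between these effects was tested as the interaction of sex and genotype, taken as the female minus the male effect. It was above 0 for 26 of the 33 members, with a median of 0.68 beside 0.0063 over all 14822 genes. No member and no other gene (0%) passed the threshold, and the lowest adjusted p among members was 0.441 by edgeR's quasi-likelihood test. At an unadjusted p under 0.05, 18 members were above 0 and none below, against 5.8% of all genes that were above. With the mouse number as a block there were 11 members, against 3.46% of all genes. DESeq2 passed 14 genes and no member, and the lowest adjusted p of a member was 0.0512. The highest values were 1.96 ± 0.48 for Scd2, 1.31 ± 0.53 for Fads1 and 1.0 ± 0.30 for Lss, the lanosterol synthase, and the lowest were -0.76 ± 0.58 for Npc1l1, -0.30 ± 0.21 for Sc5d and -0.28 ± 0.34 for Insig2.

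By role, 7 of the 8 mevalonate genes, all 3 genes from squalene to lanosterol and 6 of the 7 fatty acid genes were above 0 at an unadjusted p under 0.05. The same was true of 1 of the 8 genes from lanosterol to cholesterol, Nsdhl, which removes a methyl group with Hsd17b7, and of 1 of the 5 regulators, Insig1 (0.98 ± 0.36). The values were 0.80 ± 0.36 for Hmgcs1, 0.87 ± 0.30 for Sqle, 0.84 ± 0.26 for Fasn and 0.69 ± 0.39 for Cyp51. Those of the transcription factors were 0.20 ± 0.24 for Srebf2 and -0.17 ± 0.18 for Srebf1, and neither was past an unadjusted p of 0.05.

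The interaction depended on the libraries whose sex transcripts went against the label. Without the WT libraries 3 and 4, 359 genes passed the threshold (2.38% of 15093), and 3 of the 33 members were among them. These were Fads1 at 2.07 ± 0.42 with an adjusted p of 0.0441, Scd2 at 1.78 ± 0.41 with 0.0479 and Acly at 1.04 ± 0.21, all by edgeR. Over all alternatives the adjusted p ran from 0.00032 to 0.705 for Fads1 and from 0.00116 to 0.705 for Scd2. DESeq2 on the same 12 mice passed 10 members among 1858 genes, 13.5% of those it gave an adjusted p. That fit leaves 2 WT mice in each sex.

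Female and male Slfn3KO mice were then compared directly, a comparison that uses none of the WT libraries. In these 8 mice, 26 of the 33 members were higher in females, with a median log2 fold change, female against male, of 0.49 beside 0.014 over all 14159 genes. No member passed the threshold, which 7 genes passed (0.0494%), and the lowest adjusted p of a member was 0.0887, for Acly, by edgeR's quasi-likelihood test. At an unadjusted p under 0.05, 22 members were higher in females, against 13.7% of all genes, and 2 were lower, against 11.3%. The highest values were 1.26 ± 0.21 for Scd2 (adjusted p 0.0898), 0.92 ± 0.21 for Fads1 (0.0898) and 0.85 ± 0.23 for Idi1 (0.0939). The lowest were -0.93 ± 0.38 for Npc1l1 (0.172), -0.39 ± 0.15 for Sc5d (0.145) and -0.20 ± 0.15 for Srebf1 (0.421).

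All 7 fatty acid genes were higher in Slfn3KO females at an unadjusted p under 0.05. Acly had 157, 133, 108 and 126 CPM in females and 75.0, 71.7, 84.1 and 73.6 in males, a log2 fold change of 0.77 ± 0.12. Fads1 had 23.2, 17.9, 12.6 and 14.2 CPM in females and 8.15, 7.74, 11.4 and 8.36 in males, and Fads2 81.4, 71.4, 55.4 and 67.6 and 46.8, 39.3, 49.6 and 32.7. For these 3 genes every female was above every male. Fasn had 0.67 ± 0.13 with an adjusted p of 0.0898.

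Among the sterol genes, 7 of the 8 mevalonate genes and all 3 genes from squalene to lanosterol were higher in Slfn3KO females at that level. The log2 fold change was 0.51 ± 0.20 for Hmgcs1, 0.61 ± 0.21 for Sqle, 0.68 ± 0.19 for Cyp51 and 0.55 ± 0.23 for Insig1. From lanosterol on, Cyp51, Msmo1, Nsdhl and Hsd17b7 were higher and Sc5d was lower. Tm7sf2, Ebp and Dhcr7, which carry out reductions and an isomerisation, had values from -0.08 to 0.07. Srebf2 had 0.20 ± 0.11. The groups did not overlap for 13 members, each higher in females, against 8.24% of all genes, and these were Acat2, Hmgcs1, Mvk, Idi1, Lss, Cyp51, Hsd17b7, Acly, Fasn, Elovl6, Scd2, Fads1 and Fads2.

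The calls in this comparison depended on the method and on single mice. DESeq2 passed 7 members, each higher in females, against 2.83% of the genes it gave an adjusted p. These were Scd2, Acly, Fasn, Fads1, Fads2, Idi1 and Cyp51, and the lowest adjusted p of a member by DESeq2 was 3.03e-06. Over all alternatives the adjusted p of Scd2 ran from 7.92e-06, by DESeq2, to 0.269. Without a filter on low counts, edgeR passed Acly and Scd2 and 0.101% of all genes. Without female Slfn3KO mouse 3, it passed 10 members among 597 genes (4.14%), and without male Slfn3KO mouse 3 it passed 4 members, Acly, Scd2, Fads1 and Fads2, among 365 genes (2.55%). These mice had 278 and 169 CPM of Scd2, the lowest value of their group in both sexes. Why more genes passed without them was not tested.

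Markers of other cells moved with this comparison. The 6 proximal enterocyte markers were lower in Slfn3KO females, 5 of them at an unadjusted p under 0.05, and summed to 159 to 1171 CPM against 1329 to 6563 CPM in Slfn3KO males. Lct, the lactase of the proximal intestine, had 0.473, 1.43, 103 and 1.89 CPM in females and 161, 441, 134 and 1010.2 in males. The 6 general enterocyte markers summed to 13117 to 25497 CPM in Slfn3KO females and 22205 to 32123 CPM in Slfn3KO males. The 5 markers of crypt and dividing cells summed to 416 to 567 CPM in females and 263 to 499 CPM in males, and the cell cycle genes Mki67 and Top2a had log2 fold changes of 0.76 ± 0.16 and 0.86 ± 0.16. The 6 adipocyte markers summed to 7.4 to 38.4 CPM in females and 36.3 to 83.8 CPM in males, most of it Cidec, and Adipoq, a defining marker, reached at most 2.66 CPM in any mouse. Retn and Lep were at 0 in every Slfn3KO female. The 4 markers of exocrine pancreas summed to at most 0.136 CPM in any mouse. The part of the enterocyte, proximal and crypt markers in the result was not tested.

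Across the 16 mice, the levels of most sterol genes varied together. Of the 32 other members, 16 followed Hmgcs1 at an adjusted p under 0.05 (two-sided permutation test of Pearson's r on log2 CPM, 100000 permutations, adjusted over 14821 genes), all with positive r, against 0.938% of all genes. The median r was 0.696 over the members and 0.0414 over all genes. Of the 10 genes with the highest r out of all 14821, 8 were members. These were Fdft1 (r = 0.964), Msmo1 (0.962), Hsd17b7 (0.956), Cyp51 (0.934), Lss (0.923), Insig1 (0.905), Pmvk (0.899) and Mvd (0.897). Among the genes outside the 33, Myo19, a myosin of mitochondria, had 0.899.

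Spearman's rho of these 8 members with Hmgcs1 ran from 0.862 to 0.947, with permutation p of at most 1e-05 for r and 8e-05 for rho. For Fdft1, the squalene synthase, 9.38% of whose 50-base stretches are shared with the gene model Gm6781, Spearman's rho was 0.929, and the permutation p of r and of rho was 1e-05 each, the smallest that these permutations can give, with an adjusted p of 0.0135 for r. Without the 2 mice farthest from the median of Hmgcs1, female Slfn3KO mouse 4 and male WT mouse 3, r was 0.934 for Fdft1, 0.929 for Msmo1 and 0.89 for Cyp51. Within the genotypes, r with Fdft1 was 0.979 in the 8 Slfn3KO mice and 0.956 in the 8 WT mice. Srebf2 followed as well, with r = 0.873, rho = 0.794 (permutation p of 2e-05 and 0.0004) and an adjusted p of 0.0185, and r was 0.828 without the 2 mice.

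Not every enzyme of the pathway took part. Srebf1 had r = -0.363, Npc1l1 -0.408, Sc5d -0.188 and Ebp -0.172. Dhcr7 and Tm7sf2 had 0.378 and 0.319, and Insig2 0.201 beside 0.905 for Insig1. None of these but Insig1 passed the test. The median r between pairs of members was 0.8 among the 8 mevalonate genes and 0.31 among the 8 genes from lanosterol to cholesterol, and it was -0.0024 over 199993 random pairs of all genes.

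The calls depended on single mice. Without male WT mouse 3, 6 genes followed Hmgcs1, 5 of them members, and without male WT mouse 4 there were 1160 genes and 17 members. Of the other mice, the count of 415 genes moved by less than 1.5 times only without female Slfn3KO mouse 3 or 4, while the members that followed numbered 13 to 17. Without the WT libraries 3 and 4, no gene passed in the remaining 12 mice, while r was 0.948 for Fdft1 (adjusted p 0.148 by permutation) and 0.932 for Msmo1. That adjusted p is the smallest p that these permutations can give multiplied by the number of genes. With the mean of each group subtracted, 14 members followed among 929 genes, by permutations that made no allowance for the means removed. The ileal bile acid transporter Slc10a2 also followed Hmgcs1 (r = 0.832), and the proximal marker Lct ran against it (r = -0.763), as did Fabp1 (-0.743), and their part in the co-variation was not tested.

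More genes followed Fasn than Hmgcs1 over the 16 mice, 4146 against 415, though 2419 without female Slfn3KO mouse 1 and 2203 without female WT mouse 1. Of the 32 other members, 19 followed it with positive r, against 14.1% of all genes, and 2 with negative r, against 13.9%. The highest members were Acly (r = 0.924, rho = 0.912) and Scd2 (r = 0.9, rho = 0.853), with permutation p of 1e-05 and 1e-05 for r and of 1e-05 and 6e-05 for rho, and they were the only members among the 10 nearest genes. With the mean of each group subtracted, none of the 10 nearest genes was a member for Fasn and 5 were for Hmgcs1. With no mean subtracted, the nearest gene to Fasn was Aacs (0.934), which makes acetoacetyl-CoA for lipid synthesis. The rest of those 10, beside Acly and Scd2, were Sgsh, Rrp8, Gins3, Bysl, Zdhhc13, Txlna and Dynll1, with r between 0.896 and 0.92. Without the 2 mice farthest from the median of Fasn, female Slfn3KO mouse 1 and male WT mouse 3, r was 0.891 for Acly and 0.84 for Scd2.

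The members that ran against Fasn were Npc1l1 (r = -0.806, rho = -0.856, permutation p 0.00013 and 6e-05, adjusted p of r 0.00415) and Sc5d (r = -0.685, rho = -0.724, permutation p 0.003 and 0.00184, adjusted p of r 0.0176). Without the 2 mice, r was -0.779 and -0.684. Fads1 and Fads2 followed Fasn (r = 0.788 and 0.752) and not Hmgcs1 (0.294 and 0.263), and the difference between these correlations was not tested. The dividing cell markers Mki67 and Top2a had r = 0.768 and 0.753 with Fasn, and Lct and Gata4, a transcription factor of the proximal intestine, had -0.856 and -0.845. Their part in the co-variation was not tested.

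**Figure D4:**
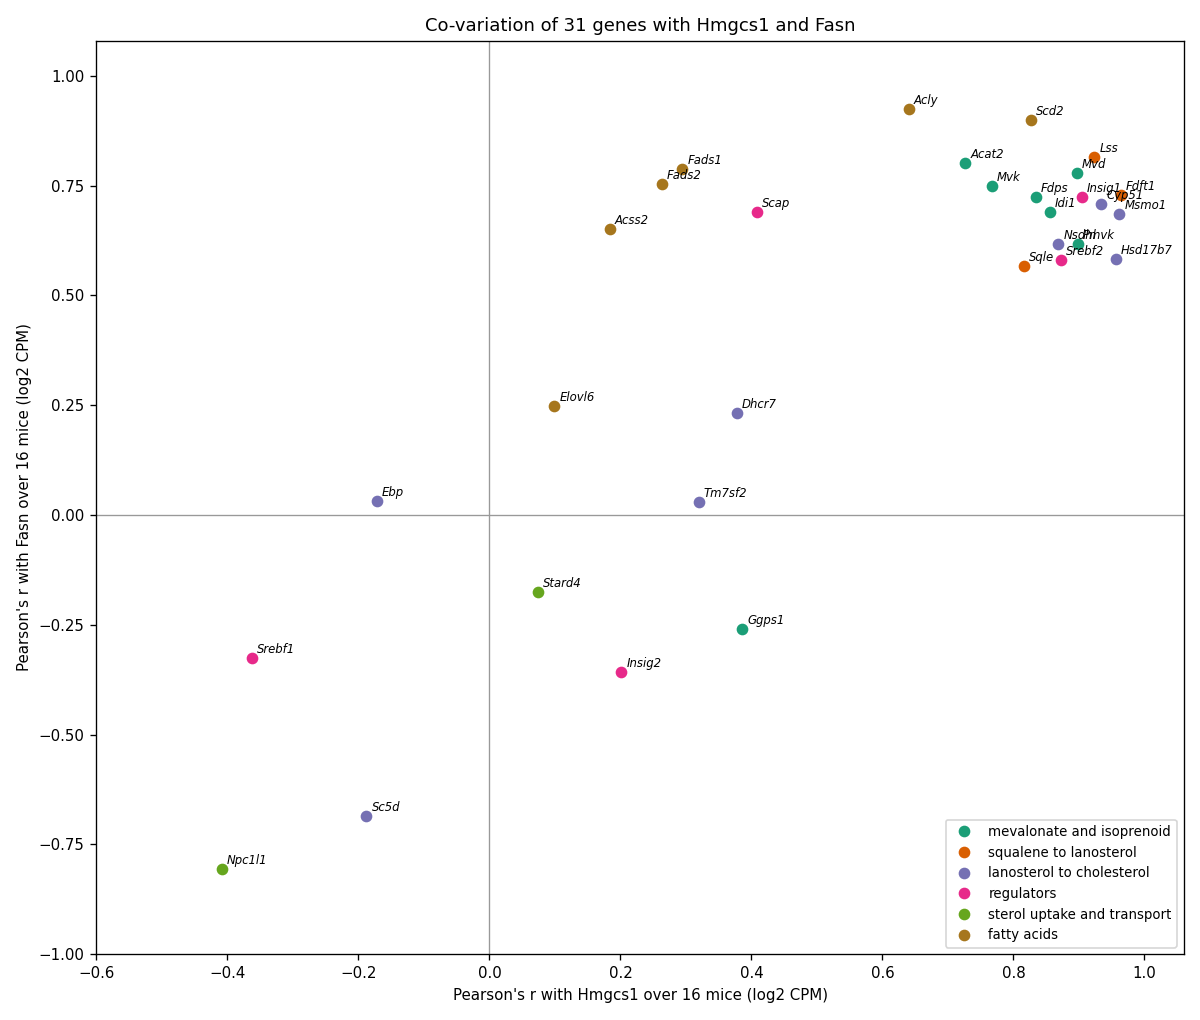
Pearson's r of each member with Hmgcs1 (horizontal axis) and with Fasn (vertical axis) over the 16 mice, coloured by role. Most mevalonate and squalene genes, and Cyp51, Msmo1, Nsdhl and Hsd17b7, sit at the right, up to 0.964 for Fdft1. Fads1, Fads2 and Acss2 sit high but near the middle of the horizontal axis, and Npc1l1 and Sc5d sit at the lower left.

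Other genes of the same pathways, not among the 33, were read beside them. Of 9 further sterol genes, none passed in any comparison, and 5 were above 0 in all mice together, with the highest value, 0.21 ± 0.17, for Tmem97, a sterol-binding membrane protein. Without the WT libraries 3 and 4 the value of Tmem97 was 0.0069 ± 0.20.

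Of 15 further fatty acid genes, 14 passed the filter in all mice together and none passed the test. The values ran from 1.062 ± 0.54 for Thrsp, a lipogenic gene found at no more than 1.03 CPM, to -1.26 ± 0.76 for Scd1, the paralog of Scd2. Scd1 had 1.4, 1.51, 135 and 27.8 CPM in WT males and 25.2, 18.2, 12.7 and 22.6 in Slfn3KO males. It had 2.01, 23.0, 44.8 and 68.8 in WT females and 13.9, 17.9, 12.9 and 6.26 in Slfn3KO females, so that the WT libraries 3 and 4 were the 4 highest of the 16. Without these libraries the value turned to 1.41 ± 0.80 in all mice and was 3.76 ± 0.33 in males, with an adjusted p of 0.0576 by edgeR. In the comparison of Slfn3KO females with Slfn3KO males, 5 of 13 were higher and 1 lower at an unadjusted p under 0.05, against 13.7% and 11.3% of all genes, with 0.61 ± 0.13 for Acaca, which commits acetyl-CoA to fatty acids.

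The 10 genes of sterol export and esterification were mostly lower in Slfn3KO females. Against Slfn3KO males 9 of the 10 were lower, 7 at an unadjusted p under 0.05, against 11.3% of all genes, and none past the threshold, with a median of -0.53. Abca1, which exports cholesterol, had 7.79, 8.38, 19.7 and 8.14 CPM in females and 23.6, 58.4, 32.7 and 107 in males (-2.34 ± 0.53), and Abcg8, which returns sterols to the lumen, had -0.71 ± 0.18. In the same 8 mice the proximal enterocyte markers summed to 159 to 1171 CPM in females and 1329 to 6563 CPM in males. The general enterocyte markers summed to 13117 to 25497 CPM and 22205 to 32123 CPM. The part of these markers in the values of this list was not tested. In all mice together, the highest value of this list was 0.10 ± 0.19 for Soat1 and the lowest -0.76 ± 0.32 for Abcg1, and none passed. Without the WT libraries 3 and 4 these values were 0.34 ± 0.20 and 0.077 ± 0.25, so that the direction of Abcg1 turned.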

How the data were processed

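RNA of the ileum mucosa of 16 mice was sequenced as single reads. The authors used cutadapt for trimming and STAR for alignment against mm10. The deposited table holds whole-number counts per gene, not normalized, beside the exon length of each gene. The header names featureCounts with reverse-stranded counting, the submitters' notes give featureCounts 1.4.6 and DESeq2 1.22.2, and the study's methods name HTSeq. The recorded command has no option for reads that align to several places, which featureCounts then leaves out. All value columns were used, and gene symbols were matched for 45143 of 46078 identifiers.

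The tests were run in edgeR 4.0.16 under R 4.3.3 (TMM factors, filterByExpr, robust quasi-likelihood F test, Benjamini-Hochberg adjustment), with a threshold of an adjusted p under 0.05 and 1.5-fold. Standard errors were taken from the log2 fold change and F (its size over the root of F). All mice were fitted with sex as a covariate, comparisons within a sex or a genotype without one. Unadjusted counts use p under 0.05 alone unless a fold is named. Levels are TMM-scaled CPM, and correlations used log2 CPM with a prior count of 2 (numpy 2.4.6). Alternatives were RLE factors, DESeq2 1.42.0, an unadjusted p, a filter of 10 counts in each mouse or none, no fold threshold, a fit over all groups, no sex covariate, a replicate block, each mouse left out and the WT libraries 3 and 4 left out, and for correlations a prior count of 0.5 and group means subtracted. DESeq2 without the WT libraries 3 and 4 was added after seeing the data.

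Replicate numbers come from the labels and mark different mice. Deviations of same-numbered mice correlated at 0.138 to 0.518 in all 4 pairs of Slfn3KO and WT males. They correlated at -0.362 to 0.143 in females and -0.283 to 0.0784 between Slfn3KO females and males. The main fits, that of males included, nonetheless took the mice as unpaired, and the replicate block gives the paired reading. Tests were checked on simulated counts. At the threshold edgeR recovered 78% of 2-fold and 91% of 4-fold changes among 14822 genes in all mice, 51% and 73% among 14124 in males, 42% and 78% among 14064 in females, 21% and 65% among 14822 for the interaction, and 64% and 87% among 14159 between Slfn3KO females and males. False calls were 47 of 199 with DESeq2 and 5 of 129 with edgeR in males, 49 of 196 and 7 of 127 in females, 18 of 125 and 1 of 87 for the interaction, and 27 of 192 and 11 of 162 between Slfn3KO females and males.

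The members and lists were chosen with earlier results of these data known. Values are given for all 33 members in counts, and in full for Hmgcs1, Sqle, Cyp51, Insig1, Srebf2, Srebf1, Npc1l1, Fasn and Scd2, for the 3 highest and 3 lowest members and any member past the threshold in each comparison, for the highest and lowest gene of each further list, and for the 10 genes nearest to Hmgcs1 and to Fasn. Other genes in the text were named after their values were seen. Some genes that this rule names are not reported here.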

Additional observations from a re-analysis of the deposited data

Results flagged for a closer look

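Of 132 sets of 4 mice (33 members in 4 groups), 6 held a mouse set apart from the other 3 by more than Dixon's limit, and chance flags about 1 in 20. In the Slfn3KO males, Sqle was low in mouse 1 at 137 CPM, beside 195 to 199 in the others, and so was Elovl6 at 69.9 CPM, beside 103 to 108. In male Slfn3KO mouse 3, Sc5d was low at 158 CPM, beside 194 to 197, and Fads1 was high at 11.4 CPM, beside 7.74 to 8.36. In the WT males, Idi1 was high in mouse 3 at 4.35 CPM, beside 2.84 to 3.08, and Fads2 was low in mouse 4 at 19.9 CPM, beside 45.5 to 47.7.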

How the results depend on the processing

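The 4 WT libraries at odds with their sex label bear on every comparison with WT mice, and each group holds 4 mice. RLE factors, no fold threshold and the replicate block changed no count of members past the threshold. With an unadjusted p under 0.05 and 1.5-fold, 984 of 14822 genes passed in all mice. In males 272 of 14124 genes and 8 of 33 members passed, and in females 1366 of 14064 genes and 3 of 33 members. For the difference between the sexes 946 of 14822 genes and 16 of 33 members passed. Between Slfn3KO females and males 1302 of 14159 genes and 10 of 33 members passed. Of the genes with an adjusted p, DESeq2 passed 71 of 15206, 18 of 18277, 530 of 15181 (1 of 33 members), 14 of 14188 and 807 of 12776 (7 of 33). Without the WT libraries 3 and 4, it passed 13 of 17225, 83 of 15309, 1251 of 13764 (4 of 33) and 1858 of 13743 (10 of 33). In edgeR without these libraries the difference between the sexes passed 359 of 15093 genes and 3 of 33 members. Between Slfn3KO females and males the count of 7 genes became 6 with the replicate block and 0 with all groups in one fit. It was 0 with at least 10 counts in every mouse. Without a filter, 25 of 24838 genes and 2 of 33 members passed. Leaving out 1 mouse gave 6 to 597 genes and 0 to 10 members there, and none in the other comparisons.

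Genes that followed Hmgcs1 numbered 929 with group means subtracted, and 6 to 1160 genes and 5 to 17 members with 1 mouse left out. Without the WT libraries 3 and 4 they numbered 0 (0 members). There the median r of the members was 0.742 and 6 of the 10 nearest genes were members. A lone gene at the smallest p of these permutations cannot pass after adjustment, so that count is bound to the number of permutations. Genes that followed Fasn numbered 2582 with group means subtracted, and 2203 to 5375 genes and 16 to 23 members with 1 mouse left out. The permutations on values with group means subtracted made no allowance for the means removed. The median level per length was 22.5 RPKM, and under RLE factors it moved by less than the spread between mice.

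The direction turned for the values that follow, none of which had passed the threshold. In all mice without the WT libraries 3 and 4 (DESeq2 in parentheses), the log2 fold change became 0.15 (0.14) for Hmgcs1, 0.21 (0.21) for Cyp51, 0.082 (0.076) for Insig1, 0.13 (0.12) for Srebf2, -0.024 (-0.034) for Srebf1, 0.31 (0.30) for Scd2 and 0.088 (0.081) for Hsd17b7. Scd2 became 0.018 with the replicate block and 0.043 without the sex covariate. Among the further genes, without the WT libraries 3 and 4, Scd1 became 1.41 and Abcg1 0.077 in all mice. In males, Npc1l1 became 0.019 with the replicate block, and without the WT libraries 3 and 4 Srebf2 became 0.092 (0.082) and Fads2 -0.15 (-0.16). In females Srebf2 became 0.18 (0.16). With 1 mouse left out, Srebf1 ran from -0.068 to 0.061 and Scd2 from -0.24 to 0.20 in all mice. In males Srebf1 ran from -0.047 to 0.21, Npc1l1 from -0.20 to 0.19, Fads2 from -0.15 to 0.19 and Stard4 from -0.046 to 0.20. In females Hmgcs1 ran from -0.023 to 0.36, Sqle from -0.038 to 0.28, Cyp51 from -0.048 to 0.27, Srebf2 from -0.14 to 0.067 and Srebf1 from -0.12 to 0.0001. The cause was not tested.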
